A study of Homo sapiens with 6 samples.

Results

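The enzymes that make pyrimidine nucleotides and convert them into DNA precursors were followed across the zones of an orthotopic breast tumor. The set was a list of 10 genes named by their function, with no rule on their values: CAD, DHODH, UMPS, CTPS1, CTPS2, TYMS, DTYMK, RRM1, RRM2 and RRM2B. All of them were found among the 60671 annotated genes of the deposited matrix, and all passed the filter for testing, a level of 1 TPM or more in 3 or more samples, which 13861 genes met. The samples were 3 of the tumor core (TC) and 3 of the tumor margin (TM), from xenografts of the MDA-MB-231 line, triple-negative breast cancer cells of human origin with the genotype label WT, grown in the mammary fat pads of NSG mice. NSG mice lack T, B and natural killer cells but keep macrophages, fibroblasts, vessels, muscle and fat, so RNA of host cells can be present. All 6 samples shared this cell line, host and injection, no drug or genetic change set the groups apart, and the labels do not say whether a core and a margin sample came from the same mouse. Values are TPM, an abundance corrected for transcript length and scaled to 1000000 per sample, so levels of different genes can be compared with each other but sequencing depth is unknown.

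De novo pyrimidine synthesis starts with CAD, a single protein that carries carbamoyl phosphate synthetase, aspartate transcarbamylase and dihydroorotase. DHODH, in the inner mitochondrial membrane, oxidizes dihydroorotate to orotate and passes electrons to the respiratory chain, and UMPS turns orotate into UMP. CTPS1 and CTPS2 convert UTP into CTP. Ribonucleotide reductase then makes deoxynucleotides from a large subunit (RRM1) and a small subunit, which is RRM2 in cycling cells and the p53-induced RRM2B in resting or damaged cells. TYMS methylates dUMP to dTMP, and DTYMK phosphorylates dTMP to dTDP. The pathway consumes glutamine and aspartate, and proliferating tumor cells are known to depend on it.

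In both zones the dTMP enzymes TYMS and DTYMK and the small reductase subunit RRM2 stood highest, and DHODH, CTPS2 and RRM2B stood lowest. In 9 of the 10 genes the TC mean was below the TM mean, beside 67.0% of all tested genes with a log2 difference below 0. Only 5 differences stayed below 0 after median-of-ratios rescaling of the samples, beside 43.9% of all tested genes. The largest differences on the log2 scale, as deposited, were in CAD (-0.64) and RRM2 (-0.54). No gene of the set passed the test after adjustment over all genes (limma, Benjamini-Hochberg, smallest adjusted p = 0.124, for CAD). A lower level in bulk tissue cannot separate fewer cells of a type from less RNA per cell.

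Promoter sequence is shown for CAD and RRM2, the genes of the set with the lowest TC levels relative to TM. It is also shown for RRM1 and TYMS, each compared with RRM2 in a ratio below. The sequences are from RefSeq, build GRCh38.p14, in windows of 250 bases before to 50 bases after the start. Of the 10 genes, 9 were matched, and RRM2B was not. Each window was searched on both strands for 4 kinds of letters: the CCAAT box (CCAAT or ATTGG, bound by NF-Y), the GC box (GGGCGG or CCGCCC, bound by SP1), the E-box (CACGTG, bound by MYC and its relatives) and an E2F form (TTTCGCGC, TTTGGCGC or TTTCCCGC, or their reverse complements). For CAD, the 200 bases just before the RefSeq start (chr2:27217169-27217368, plus strand) hold both of its GC boxes, in capitals. For RRM1, the 200 bases just before its start (chr11:4094485-4094684, plus strand) hold a GC box and, near the start, a CCAAT box, in capitals.
CAD: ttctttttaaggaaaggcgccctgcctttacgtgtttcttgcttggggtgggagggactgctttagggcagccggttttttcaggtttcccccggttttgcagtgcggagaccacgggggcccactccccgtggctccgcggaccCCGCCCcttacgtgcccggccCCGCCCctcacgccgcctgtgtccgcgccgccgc
RRM1: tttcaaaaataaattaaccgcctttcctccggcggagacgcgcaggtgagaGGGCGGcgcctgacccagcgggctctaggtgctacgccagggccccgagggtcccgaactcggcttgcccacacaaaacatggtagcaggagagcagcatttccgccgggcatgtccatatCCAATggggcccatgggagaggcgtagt

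RRM2 had 3 CCAAT boxes, each followed by the letters gggaaggg, and they are shown with 10 bases on either side and the box in capitals. They lie on the plus strand of chromosome 2, between 123 and 62 bases before the RefSeq start, in a stretch that a longer RRM2 transcript of GENCODE also covers.
RRM2 box at chr2:10122606-10122630: caaggcgcagCCAATgggaagggtc
RRM2 box at chr2:10122636-10122660: catggcacagCCAATgggaagggcc
RRM2 box at chr2:10122663-10122687: ggcaccaaagCCAATgggaagggcc
TYMS E2F form at chr18:657604-657631: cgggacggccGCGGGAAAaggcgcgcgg

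TYMS was the one gene of the set whose window held an E2F form (plus strand letters, in capitals), and DHODH the one whose window held an E-box. CCAAT boxes were found in 5 of the 9 windows (CAD, DHODH, DTYMK, RRM1 and RRM2), against 34.6% of 35116 RefSeq promoter windows of the same length. GC boxes were found in 5 (CAD, DHODH, CTPS1, DTYMK and RRM1), against 45.0%. An E2F form occurred in 2.74% and an E-box in 7.26% of all windows, and the windows of UMPS and CTPS2 held none of these letters. A match of letters is a description of the window and not evidence of binding.

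The libraries were not alike in every respect. Genes above 0 TPM numbered 21063 to 21942 in TC and 22678 to 23216 in TM, and mitochondrially encoded genes took 6.08% to 8.82% of TPM in TC and 9.23% to 11.1% in TM. TM replicate 3 stood apart from the other margin samples, with a TPM sum of 994381 instead of 1000000 and 21.1 TPM in loci outside the annotation, against 1573.7 to 2643 in the other samples. The 7 markers of MDA-MB-231 cells were high in every sample (summed 5311 to 6832 TPM), and CDH1 and ESR1, which these cells lack, were at most 0.36 TPM. The list of 6 hormone receptor and luminal genes that holds them summed to 29.2 to 33.2 TPM in TC and 39.8 to 49.9 TPM in TM, without overlap, mostly through ERBB2 (22.31 to 24.07 and 30.82 to 40.73 TPM), and its part in the differences of the enzymes was not tested. Fibroblast markers (10 genes, summed) were at 66.3, 124 and 226 TPM in TC replicates 1 to 3 and at 478.6, 1007 and 91.5 TPM in TM replicates 1 to 3. Skeletal muscle markers (9 genes found of 10) summed to 4.02 to 8.04 TPM in TC, to 175 and 473 TPM in TM replicates 1 and 2, and to 2.74 TPM in TM replicate 3. In the 2 margin samples with the high muscle sums 0 of the 9 muscle genes were at 0, as in TC replicate 2. TM replicate 3 and TC replicate 1 listed 2 at 0 and TC replicate 3 listed 4. Endothelial (4.17 to 7.77 TPM) and adipocyte (at most 1.09 TPM) markers were near the floor. The sums of macrophage markers (95.5 to 109 TPM) and erythroid markers (0.29 to 6.93 TPM) overlapped between the groups. CD68 (84.8 to 94.19 TPM) made up most of the macrophage sum, and CSF1R alone of that list did not overlap (1.99 to 3.0 TPM in TC, 3.1 to 9.12 TPM in TM). The fibroblast sum came mostly from COL1A1 (44.71 to 698.15 TPM), with LUM, PDGFRA and THY1 at most 0.38 TPM. Neither sum measures the number of cells.

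**Figure D1:**
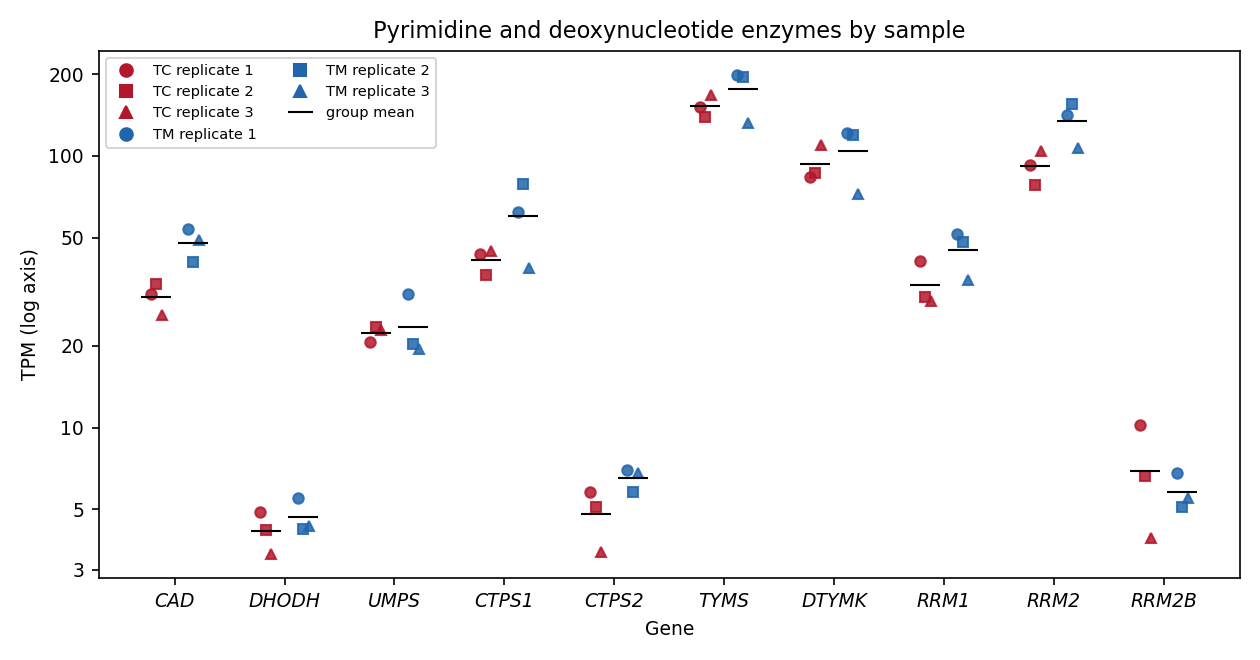
TPM of each of the 10 enzymes (log axis) in the 3 TC samples (red) and the 3 TM samples (blue), with marker shapes for the replicate number and a black bar for the group mean. TYMS, DTYMK and RRM2 lie highest, DHODH, CTPS2 and RRM2B lowest, and the groups are apart in CAD, CTPS2 and RRM2.

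CAD (ENSG00000084774, chromosome 2, 27217390 to 27243943, plus strand, 43 exon blocks; GENCODE v29, GRCh38), the enzyme of the first steps, had 31.09, 33.65 and 25.89 TPM in TC replicates 1 to 3 and 53.83, 40.77 and 48.89 TPM in TM replicates 1 to 3. Every core value was below every margin value. The means were 30.2 ± 3.95 TPM in TC and 47.8 ± 6.59 TPM in TM (SD, n = 3). The log2 difference, TC minus TM on the scale of log2(TPM + 1) used throughout, was -0.64 (SE 0.17, 95% interval -1.03 to -0.26). The limma p was 0.00446 before and 0.124 after adjustment over all genes, so CAD was not called. Its difference was at the percentile 9.01 of all tested genes.

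The next enzymes in the pathway differed less. DHODH (ENSG00000102967, chromosome 16, 72008588 to 72027664) was listed at 4.9, 4.19 and 3.43 TPM in TC and 5.49, 4.25 and 4.36 TPM in TM. The groups overlapped, with means of 4.17 ± 0.735 and 4.70 ± 0.686 TPM (SD, n = 3) and a log2 difference of -0.14 (95% interval -0.66 to 0.38, limma adjusted p = 0.816). UMPS (ENSG00000114491, chromosome 3, 124730366 to 124749273) was at 20.63, 23.43 and 22.86 TPM in TC and 30.92, 20.3 and 19.41 TPM in TM. TM replicate 1 was the one high sample, and the other margin samples were below all 3 core samples. The log2 difference of UMPS was -0.046 (95% interval -0.51 to 0.42, limma adjusted p = 0.946).

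The CTP synthetases were unequal in level and in spread. CTPS1 (ENSG00000171793, chromosome 1, 40979335 to 41012565) was at 43.42, 36.46 and 44.54 TPM in TC and at 62.31, 78.48 and 38.77 TPM in TM. TM replicates 1 and 2 were above all core samples, and TM replicate 3 lay within the core range. The means were 41.5 ± 4.38 TPM in TC and 59.85 ± 19.97 TPM in TM (SD, n = 3), with a log2 difference of -0.47 (95% interval -1.03 to 0.094, limma adjusted p = 0.411). The order of the margin samples, replicate 2 highest and replicate 3 lowest, was also that of the fibroblast and muscle marker sums given above, whose part in this difference was not tested. CTPS2 (ENSG00000047230, chromosome X, 16588003 to 16712936, minus strand) was at 5.77, 5.11 and 3.49 TPM in TC and 7.0, 5.8 and 6.78 TPM in TM. Its groups did not overlap, by a margin of 0.03 TPM between TC replicate 1 and TM replicate 2 that is small beside the spread of either group. The log2 difference of CTPS2 was -0.40 (95% interval -0.93 to 0.14, limma adjusted p = 0.472).

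The dTMP enzymes overlapped between the zones. TYMS (ENSG00000176890, chromosome 18, 657604 to 673578), the target of fluoropyrimidines, had the highest mean of the set, at 150.77, 139.25 and 167.99 TPM in TC and 198.87, 195.37 and 132.5 TPM in TM. Its log2 difference was -0.18 (95% interval -0.59 to 0.23, limma adjusted p = 0.680). DTYMK (ENSG00000168393, chromosome 2, 241675742 to 241686991, minus strand) was at 83.62, 86.41 and 109.67 TPM in TC and 121.67, 119.36 and 72.09 TPM in TM, with a log2 difference of -0.13 (95% interval -0.64 to 0.37, limma adjusted p = 0.825). In both genes TM replicates 1 and 2 were above all core samples and TM replicate 3 was below all of them. TYMS shares 39.1% of its exon bases with ENOSF1 on the opposite strand and 7.4% with TYMSOS (2.72 to 7.19 TPM). ENOSF1 was at 9.0, 9.18 and 9.17 TPM in TC and 12.19, 13.74 and 16.1 TPM in TM, without overlap. Its part in the TYMS values was not tested. The study's methods name an orientation mode for the alignment. They do not say whether strand entered the counting, so reads of these genes may not be told apart.

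Of the ribonucleotide reductase genes, RRM2 (ENSG00000171848, chromosome 2, 10120698 to 10131419) was at 92.69, 78.15 and 104.33 TPM in TC and 141.25, 154.73 and 106.93 TPM in TM. Every core value was below every margin value, the nearest being TC replicate 3 and TM replicate 3. The means were 91.7 ± 13.1 and 134.3 ± 24.65 TPM (SD, n = 3), with a log2 difference of -0.54 (SE 0.18, 95% interval -0.94 to -0.14). The limma p was 0.0149 before and 0.187 after adjustment. RRM2 shares 20.2% of its exon bases with an overlapping gene model on the same strand, AC007240.1, which has no values here, and of its pseudogenes RRM2P2 and RRM2P4 were listed at 0 in every sample and RRM2P3 at 0 to 0.18 TPM.

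RRM1 (ENSG00000167325, chromosome 11, 4094707 to 4138876), the large subunit, was at 40.87, 30.28 and 29.17 TPM in TC and 51.72, 48.21 and 35.05 TPM in TM. The groups overlapped through TC replicate 1 and TM replicate 3, and the log2 difference was -0.41 (95% interval -0.87 to 0.045, limma adjusted p = 0.368). RRM2B (ENSG00000048392, chromosome 8, 102204502 to 102239118, minus strand) was the one gene of the set with a higher mean in TC. It was at 10.2, 6.62 and 3.91 TPM in TC and 6.78, 5.1 and 5.52 TPM in TM, so that both the highest and the lowest sample were core samples. Its log2 difference was 0.15 (95% interval -0.57 to 0.87, limma adjusted p = 0.872), and it was -0.15 without TC replicate 1.

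The order of levels was read within each zone. In TC, TYMS was apart from the next genes, DTYMK and RRM2, whose ranges overlapped. CTPS1, RRM1 and CAD followed with overlapping ranges, then UMPS, apart from its neighbours, and last RRM2B, CTPS2 and DHODH, which overlapped. In TM, the steps from TYMS through RRM2, DTYMK, CTPS1 and CAD to RRM1 all overlapped with the next gene, and UMPS again stood apart above CTPS2, RRM2B and DHODH. Among the tested genes TYMS was at the percentile 94.35 of mean level, RRM2 at 91.7 and DTYMK at 90.5, whereas DHODH was at 27.1, CTPS2 at 32.3 and RRM2B at 34.8.

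**Figure D2:**
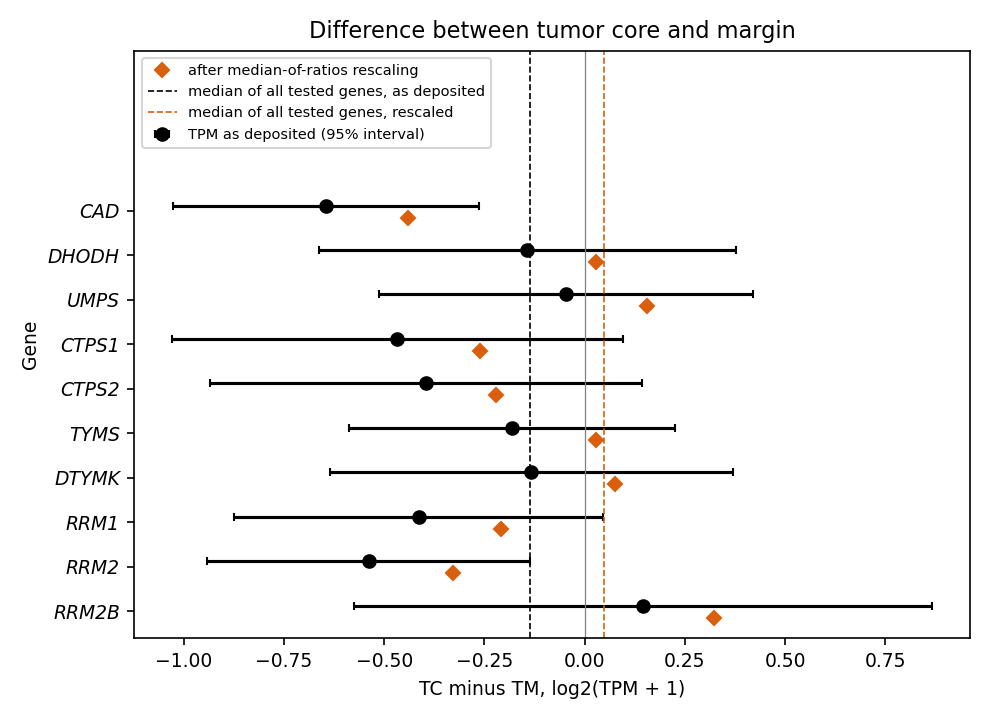
Difference TC minus TM of log2(TPM + 1) for each enzyme, as deposited (black points, bars for the 95% interval of limma) and after rescaling the samples by median-of-ratios factors (orange diamonds), with the median of all tested genes as dashed lines. CAD and RRM2 have intervals below 0, and DHODH, UMPS, TYMS and DTYMK lie above 0 once rescaled.

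As a set, the enzymes were read against all tested genes. At an adjusted p under 0.05, 0 of the 10 were called by limma, beside 0.137% of all genes (19 of 13861). At an unadjusted p under 0.05, 2 were lower in TC, CAD and RRM2, beside 14.2% of all genes, and 0 were higher, beside 1.93%. Core values were all below margin values in 3 genes, CAD, CTPS2 and RRM2, beside 18.9% of all genes, and all above in 0, beside 3.28%. The difference was below 0 in 9 of 10, beside 67.0%. The counts at p under 0.05 and without overlap are thus close to the background of a table in which many genes were lower in TC, and are no result about the enzymes. The intervals given above are wide, so a gene that was not called is not shown to be alike in both zones. The median difference of the set was -0.29 and that of all tested genes was -0.14.

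TPM values of a sample sum to a constant, so the scaling of the samples bears on each difference. After rescaling by median-of-ratios factors the median of all tested genes moved from -0.14 to 0.049 and that of the set from -0.29 to -0.091. Of the 10 enzymes 5 then had a difference below 0 (CAD, CTPS1, CTPS2, RRM1 and RRM2), beside 43.9% of all genes. CAD alone kept an unadjusted p under 0.05 (log2 difference -0.44, limma adjusted p = 0.282), beside 6.7% of all genes, and was alone in having no overlap between the groups, beside 9.74%. Its rescaled values were 30.49, 35.86 and 30.38 in TC and 46.17, 38.33 and 47.97 in TM. For RRM2 the rescaled difference was -0.33, and DHODH, UMPS, TYMS and DTYMK turned to 0.028, 0.16, 0.029 and 0.076.

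Sample by sample, the set divided along lines that the zones do not give. Summed over the 10 enzymes, core samples held 484.0, 443.5 and 515.3 TPM and margin samples 679.8, 672.4 and 470.3 TPM, so TM replicate 3 lay within the core range. Of the 10 genes, 7 were highest in TM replicate 1, 2 in TM replicate 2 (CTPS1 and RRM2) and 1 in TC replicate 1 (RRM2B). The lowest sample was TC replicate 3 in 5 genes, TM replicate 3 in 3 genes (UMPS, TYMS and DTYMK) and TC replicate 2 in 2 genes. The median-of-ratios factors, drawn from genes in general, were also highest in TM replicate 1 (1.1659) and lowest in TC replicate 3 (0.85217). The same shares over all tested genes were not counted, so these counts are no result about the enzymes. CAD, CTPS2 and RRM2 were the genes in which TM replicate 3 still exceeded every core sample. Without TM replicate 3, 6 enzymes were lower in TC at an unadjusted p under 0.05 (CAD, CTPS1, TYMS, DTYMK, RRM1 and RRM2), beside 16.8% of all genes, and 0 were called (smallest limma adjusted p = 0.0907, for RRM2). In that fit the log2 difference was -0.75 for CTPS1, -0.69 for RRM2, -0.62 for CAD and -0.58 for RRM1. Without TC replicate 2 or without TM replicate 2, CAD was the 1 enzyme at that level. The share of all genes lower in TC at that level was not counted for these fits.

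**Figure D3:**
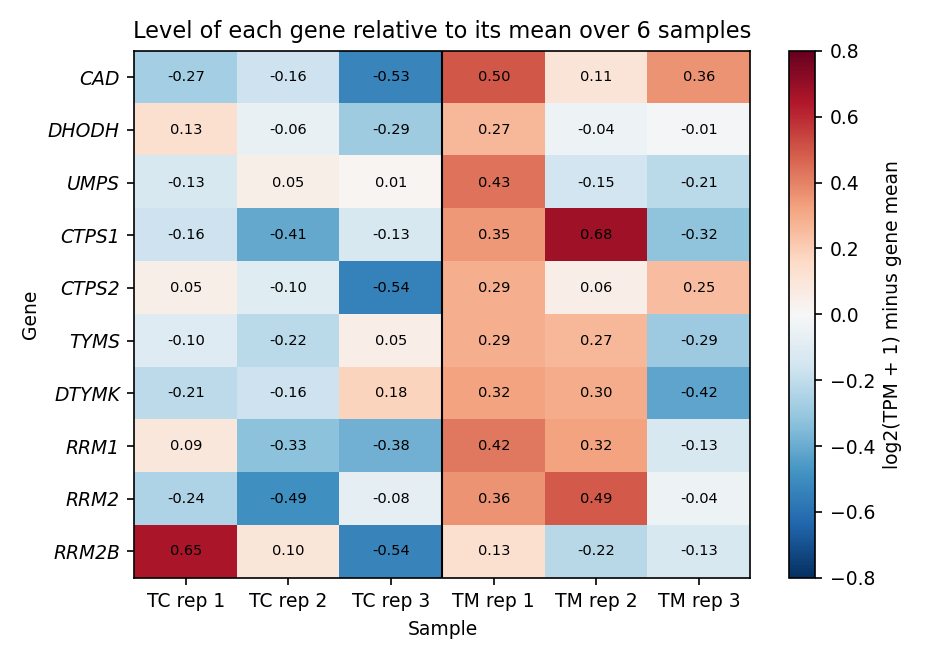
Level of each enzyme in each sample as log2(TPM + 1) minus the mean of that gene over the 6 samples (red above, blue below, values printed), with TC samples left of the line and TM samples right of it. TM replicate 1 is above the mean in all 10 genes, while TM replicate 3 is above it in CAD and CTPS2 only. TM replicate 1 also had the highest median-of-ratios factor of the 6 samples.

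Ratios of enzymes within a sample do not depend on how that sample was scaled, and 8 ratios were tested by exact permutation (two-sided), whose smallest possible p is 0.1 with 3 samples against 3. The CAD to DHODH ratio was 6.345, 8.031 and 7.548 in the core and 9.805, 9.593 and 11.21 in the margin. The CAD to UMPS ratio was 1.507, 1.436 and 1.133 in the core and 1.741, 2.008 and 2.519 in the margin. The RRM2 to TYMS ratio was 0.6148, 0.5612 and 0.621 in the core and 0.7103, 0.792 and 0.807 in the margin. In these 3 ratios every core value was below every margin value. The log2 differences were -0.49, -0.615 and -0.36 (exact permutation p = 0.1 each, 0.267 adjusted over the 8 ratios). Of all pairs of tested genes above 0 TPM in every sample, 19.7% had a ratio without overlap in either direction. The ratios of CAD to CTPS1 (log2 difference -0.19) and of CAD to CTPS2 (-0.19), which act later in the pathway, overlapped between the zones. Without TM replicate 3 the differences of the 3 ratios without overlap were -0.415, -0.47 and -0.33. Leaving out a sample cannot create an overlap, so the gap between the groups was not tested by this.

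The ratio of the small to the large reductase subunit, RRM2 to RRM1, was 2.268, 2.581 and 3.577 in the core and 2.731, 3.21 and 3.051 in the margin, and the groups overlapped (log2 difference -0.12, exact permutation p = 0.6, adjusted p = 0.686). The RRM2 to RRM2B ratio spread from 9.087 to 26.68 in TC and from 19.37 to 30.34 in TM (log2 difference -0.70, exact permutation p = 0.3, adjusted p = 0.48). RRM2B to RRM1 averaged 0.201 ± 0.0598 in the core and 0.1315 ± 0.0259 in the margin (SD, n = 3, log2 difference 0.58, exact permutation p = 0.2, adjusted p = 0.4). CTPS1 to CTPS2 averaged 9.14 ± 3.14 in the core and 9.38 ± 3.93 in the margin (SD, n = 3, exact permutation p = 1), and TYMS to DTYMK was 1.65 ± 0.139 and 1.70 ± 0.117 (SD, n = 3, exact permutation p = 0.5, adjusted p = 0.667). TYMS and DTYMK thus kept a near constant proportion, between 1.532 and 1.838, in all 6 samples, although each varied by sample.

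Over all 45 pairs of the 10 enzymes, the ratio did not overlap between the zones in 9. Over all pairs of tested genes above 0 TPM in every sample the share was 19.7%, so the number of such pairs was close to that of genes in general. CAD and RRM2 took part in 3 of these pairs each and RRM1 in 0.

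**Figure D4:**
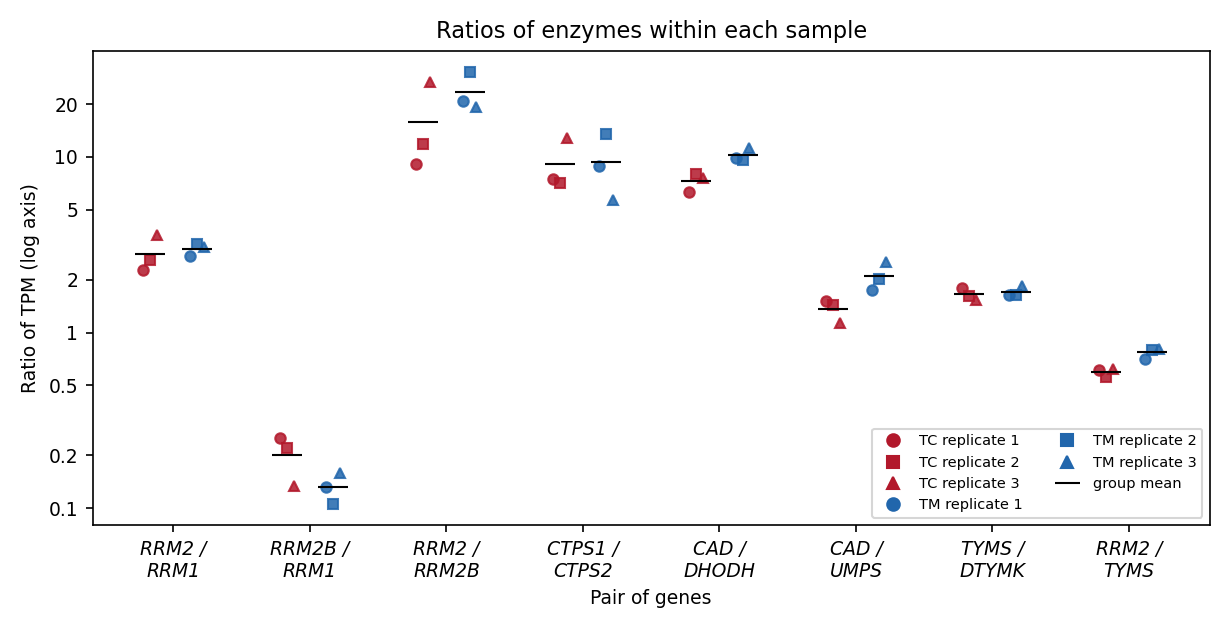
Ratio of TPM between pairs of enzymes within each sample (log axis) in TC (red) and TM (blue), with marker shapes for the replicate number and a black bar for the group mean. The groups are apart for CAD to DHODH, CAD to UMPS and RRM2 to TYMS, and overlap in the other 5 ratios. Over all pairs of tested genes above 0 TPM in every sample, 19.7% were apart.

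For each enzyme the tested gene with the most similar pattern was looked up, by Pearson correlation of log2(TPM + 1) over the 6 samples. With 13861 candidates and 6 samples, high values occur for any gene, and they are given as a description. SART3, a splicing recycling factor, followed CAD most closely (r = 0.9993), at 20.57, 21.95 and 17.22 TPM in TC and 34.69, 27.21 and 31.63 TPM in TM. TPM1, a tropomyosin of muscle and stress fibres, followed CTPS1 (r = 0.9943), at 170.01, 148.01 and 175.54 TPM in TC and 301.8, 436.61 and 145.58 TPM in TM. KIF4A, a mitotic kinesin, followed RRM1 (r = 0.9981), and C1QBP, a mitochondrial matrix protein, followed DTYMK (r = 0.996). The others were C22orf46P for DHODH (0.9959), GKAP1 for UMPS (0.9834), BRPF3 for CTPS2 (0.9986), ZMYND19 for TYMS (0.9945), TMEM102 for RRM2 (0.9926) and KLHL5 for RRM2B (0.9981).

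The neighbouring steps of nucleotide metabolism were read from lists of related genes. Of 16 genes of pyrimidine salvage and nucleotide phosphorylation, 14 were tested and 0 were called. In TC 8 were lower, beside 67.0% of all tested genes, and 6 were higher. The median log2 difference was -0.0039 (0.20 after median-of-ratios rescaling). UCKL1, a uridine-cytidine kinase-like protein, was the 1 gene at an unadjusted p under 0.05, beside 14.2% of all genes lower in TC. It was at 74.14, 83.68 and 80.48 TPM in TC and 93.65, 94.34 and 109.26 TPM in TM (log2 difference -0.31, limma adjusted p = 0.274). After rescaling its difference was -0.11. UPRT (0.50) and, named after its values were seen, the UMP-CMP kinase CMPK1 (0.37) were then the 2 genes at that level. Both were higher in TC, beside 6.81% of all genes. TK1, the thymidine kinase of cycling cells, was at 125.98, 136.09 and 154.23 TPM in TC and 204.02, 175.82 and 144.26 TPM in TM, an overlap through TC replicate 3 and TM replicate 3 (log2 difference -0.32, limma adjusted p = 0.374). UPRT, a uracil phosphoribosyltransferase homolog, had the highest difference of the list (0.30), CDA, cytidine deaminase, the lowest (-0.62, at 0.21 to 3.44 TPM), and the diphosphate kinase NME2 the highest level (1541.66 to 1920.65 TPM). CMPK2, a mitochondrial nucleotide kinase, was listed at 0 in every sample.

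Of 13 genes that supply, balance or degrade deoxynucleotides, 0 were called and 0 had an unadjusted p under 0.05. Their median difference was 0.0028 (0.19 rescaled), against -0.14 for all tested genes. In TC 7 were higher, where 67.0% of all tested genes were lower. TXN, the thioredoxin that regenerates ribonucleotide reductase, was at 324.13, 313.77 and 411.62 TPM in TC and 300.38, 279.62 and 310 TPM in TM (log2 difference 0.23, limma adjusted p = 0.479). GLRX, glutaredoxin, another electron donor to the reductase, was at 157.92, 132.35 and 144.85 TPM in TC and 117.44, 94.96 and 133.42 TPM in TM (log2 difference 0.34, limma adjusted p = 0.332). TXN and, named after its values were seen, the mitochondrial deoxyguanosine kinase DGUOK (log2 difference 0.18) were the 2 genes of the list whose core values were all above the margin values. The share of such genes among all tested genes was 3.28%. SAMHD1, which hydrolyses dNTPs, was at 23.21 to 32.73 TPM in TC and 21.62 to 51.38 TPM in TM (log2 difference -0.33), and TXNRD1, thioredoxin reductase, differed by -0.31. After median-of-ratios rescaling TXN, GLRX, DGUOK and NT5C, the last 2 named after their values were seen, had an unadjusted p under 0.05 and were higher in TC (differences 0.35 to 0.55, limma adjusted p of at least 0.259), beside 6.81% of all genes.

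Only 2 of 5 genes of pyrimidine breakdown were tested, and 0 were called by limma or had an unadjusted p under 0.05. DPYD, the first enzyme of uracil catabolism, was at 42.92, 32.82 and 23.98 TPM in TC and 33.88, 26.21 and 27.02 TPM in TM, a range in TC that held all margin values (log2 difference 0.16). TYMP, thymidine phosphorylase, differed by 0.028. Among 9 genes that supply glutamine, aspartate and phosphoribosyl pyrophosphate, 8 were lower in TC, beside 67.0% of all tested genes. Of these 9 genes 0 were called or had an unadjusted p under 0.05 by limma, and the median was -0.28 (-0.075 rescaled). GOT2, the mitochondrial aspartate transaminase, was at 112.31, 123.54 and 128.34 TPM in TC and 164.21, 156.8 and 125.41 TPM in TM (log2 difference -0.28, limma adjusted p = 0.381). The glutamine transporter SLC1A5 was at 67.42, 96.37 and 97.14 TPM in TC and 121.5, 129.52 and 95 TPM in TM (log2 difference -0.41, limma adjusted p = 0.3335). In both genes TM replicate 3 again lay within the core range. The differences of GLUL, glutamine synthetase, and of GOT1 were -0.39 and -0.30.

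Of 12 known regulators of the enzymes or of their cell cycle timing, 11 were lower in TC (67.0% of all tested genes), 0 were called and the median was -0.35 (-0.15 rescaled). MYC, a transcription factor known to drive nucleotide synthesis genes, CAD among them, had the highest level of the list. It was at 98.19, 107.77 and 109.39 TPM in TC and 199.92, 140.12 and 132.68 TPM in TM, without overlap (log2 difference -0.56, SE 0.17, limma adjusted p = 0.168). CCNF, the F-box protein that targets RRM2 for degradation, was at 7.53, 7.71 and 7.15 TPM in TC and 15.91, 11.48 and 10.9 TPM in TM (log2 difference -0.68, limma adjusted p = 0.161). WEE1, a kinase that holds CDK activity in check, differed by -0.41 (limma adjusted p = 0.307), again without overlap. MYC, CCNF and WEE1 were the 3 regulators at an unadjusted p under 0.05 (14.2% of all tested genes) and the 3 without overlap (18.9%). After rescaling 1 remained at that level, CCNF (log2 difference -0.49), beside 6.7% of all genes lower in TC. ATR, the replication stress kinase, and E2F2 differed by -0.47 and -0.37 with overlapping groups, and RB1, named after its values were seen as the 1 higher gene, by 0.34.

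Of 20 genes of DNA replication and proliferation, 18 were lower in TC (67.0% of all tested genes), 0 were called (0.137%) and 8 were lower at an unadjusted p under 0.05 (14.2%). The median was -0.40, against -0.14 for all tested genes. MCM3, a subunit of the replicative helicase, was at 73.6, 70.55 and 74.17 TPM in TC and 111.88, 108.01 and 91.43 TPM in TM (log2 difference -0.50, limma adjusted p = 0.121). The helicase subunit MCM7, the highest of the list, was at 160.48, 158.14 and 187.46 TPM in TC and 239.38, 253.58 and 199.82 TPM in TM (log2 difference -0.45, limma adjusted p = 0.169). The licensing factor CDC6 differed by -0.58, the cyclin CCNE1 by -0.50, CDC45 by -0.49, CDT1 by -0.47, MCM4 by -0.46 and MCM2 by -0.43. The proliferation antigen MKI67 was at 28.77, 23.03 and 22.31 TPM in TC and 47.63, 39.75 and 19.46 TPM in TM, so TM replicate 3 was the lowest of all samples (log2 difference -0.43, limma adjusted p = 0.563). TOP2A, a topoisomerase of late S phase and mitosis, named after its values were seen, was the higher of the 2 genes above 0 (0.34), at 27.65 TPM in TM replicate 3 against 55.19 to 87.52 TPM in the other samples. After median-of-ratios rescaling 0 of the 20 had an unadjusted p under 0.05, and the median was -0.205.

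The enzymes that use the nucleotides included the largest differences of all these lists. Of 11, 10 were tested, 0 were called, 9 were lower in TC (67.0% of all tested genes), 5 had an unadjusted p under 0.05 (14.2%), each without overlap (18.9%), and the median was -0.32 (-0.12 rescaled). POLE, the catalytic subunit of the leading strand DNA polymerase, was at 12.19, 9.7 and 13.34 TPM in TC and 35.07, 28.87 and 24.08 TPM in TM (log2 difference -1.25, SE 0.20, limma adjusted p = 0.0658). POLD1, of the lagging strand polymerase, was at 31.39, 37.04 and 36.67 TPM in TC and 65.34, 64.9 and 45.61 TPM in TM (log2 difference -0.71, SE 0.18, limma adjusted p = 0.116). After rescaling both remained below 0, at -1.05 and -0.50. They were then the 2 genes of the list with an unadjusted p under 0.05, beside 6.7% of all genes lower in TC. POLA1, the primase-associated polymerase, differed by -0.51, UAP1, which makes UDP-N-acetylglucosamine from UTP, by -0.44, and PCYT1A, which uses CTP for phosphatidylcholine, by -0.41 (limma adjusted p = 0.298, 0.283 and 0.274).

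**Figure D5:**
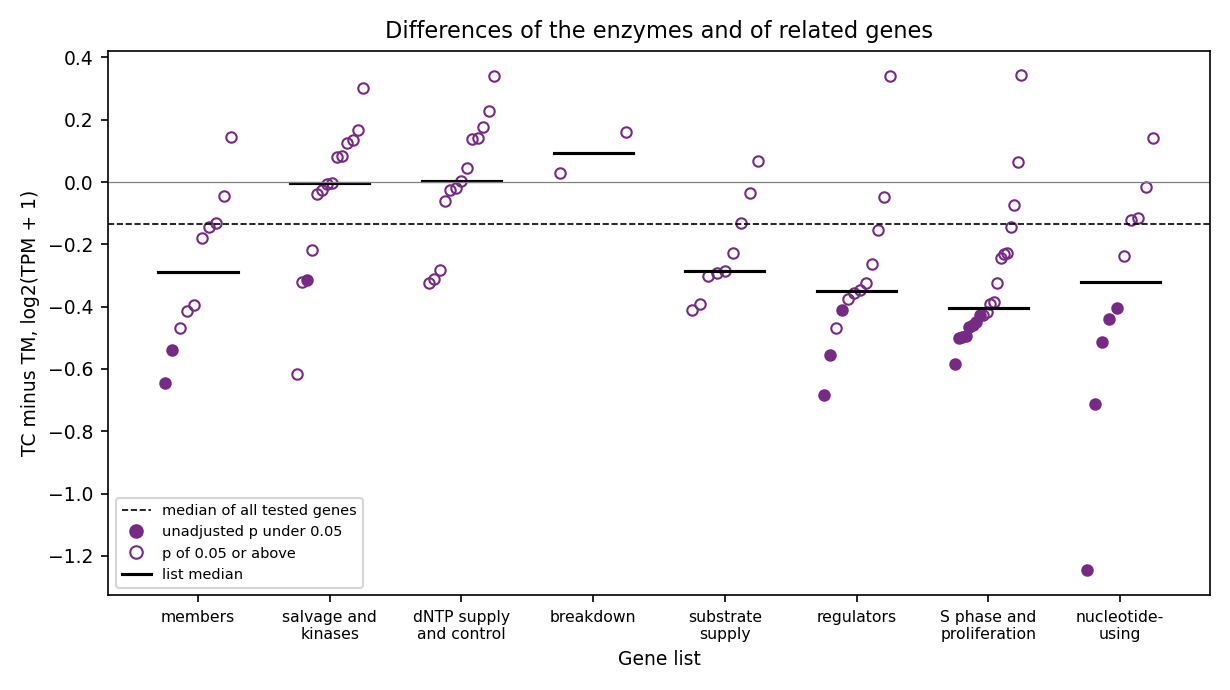
Difference TC minus TM of log2(TPM + 1) for each tested gene of the 10 enzymes (members) and of 7 lists of related genes, with a black bar for the list median, a dashed line for the median of all tested genes (-0.14) and filled points for an unadjusted limma p under 0.05. The medians of the enzymes, substrate supply, regulators, S phase and nucleotide-using lists lie below the dashed line, those of salvage, dNTP supply and breakdown above it.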

How the data were processed

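RNA-seq of 3 TC and 3 TM samples was used, with samples grouped and numbered by their titles. Values deposited by the authors were TPM per gene. Per the labels and the study's methods, total RNA was made into TruSeq libraries, and SeqPrep and Sickle trimmed the reads. The reads were aligned to hg38 by HISAT2 in an orientation mode, assembled with StringTie and quantified with RSEM. Tool versions, a step that parts mouse from human reads, and the use of strand in counting were not given in the sources used here. TPM holds no read counts, so depth is unknown and DESeq2, the count model named in the methods, was not run.

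The matrix held 60930 rows, of which 259 were loci outside the annotation and were not tested. Values were taken as log2(TPM + 1), with a pseudocount of 1, and genes at 1 TPM or more in 3 or more samples were tested with limma 3.58.1 in R 4.3.3 (trend, two-sided, no covariate, Benjamini-Hochberg over 13861 genes). Calls needed an adjusted p under 0.05. P-values measure the spread between these samples, and in limma the variance of each gene was drawn toward that of genes of similar level. The study gives 3 mice per group for this RNA-seq, and the labels do not name the mice. No source says that replicate numbers pair the samples, and same-numbered samples correlated at 0.211, -0.121 and -0.165 in their deviations from the group means, so the numbers were not used as a block in the reported fit. Ratios were tested by exact permutation in scipy 1.17.1. Gene positions and exon overlaps are from GENCODE v29, and promoters are from RefSeq (GRCh38.p14).

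The enzymes and the lists of related genes were chosen with earlier results of these data known. Of each list, the genes named were those with an unadjusted p under 0.05, the one with the highest mean and up to 3 others with the largest absolute differences, and for each enzyme the most correlated gene, with exceptions marked. Alternatives were a pseudocount of 0.1, no filter, a minimum mean of 5 TPM, quantile normalization, median-of-ratios rescaling, removal of mitochondrially encoded genes, empirical Bayes without a trend or in robust form, a replicate block, and leaving out each sample.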

Additional observations from a re-analysis of the deposited data

How the results depend on the processing

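None of the 15 alternative fits called any of the 10 enzymes (smallest adjusted p of an enzyme per fit 0.0882 to 0.329, limma). CAD was below an unadjusted p of 0.05 in all 15 and RRM2 in 12 of 15. Over all genes, the 19 called became 12 without a trend, 6 after median-of-ratios rescaling, 1 without a filter, 7 with a pseudocount of 0.1, 4 after quantile normalization and 47 in the robust form, and leaving out a sample gave 1 (TC replicate 3 or TM replicate 1) to 17. With the replicate block 1 gene was called and the smallest adjusted p of an enzyme was 0.261. The number of enzymes lower in TC at an unadjusted p under 0.05 was 2, beside 14.2% of all tested genes. It became 1 after median-of-ratios rescaling, beside 6.7%. When a sample was left out it ranged from 1 (without TC replicate 2 or TM replicate 2) to 6 (without TM replicate 3). The share of all tested genes was 16.8% without TM replicate 3 and was not counted for the other fits that left out a sample.

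The difference turned above 0 after median-of-ratios rescaling in DHODH (0.028), UMPS (0.16), TYMS (0.029) and DTYMK (0.076), and after quantile normalization in DHODH (0.039) and UMPS (0.13). When a sample was left out, UMPS ranged from -0.16 to 0.16 and RRM2B from -0.15 to 0.45, the RRM2 to RRM1 ratio from -0.31 to 0.023, CTPS1 to CTPS2 from -0.32 to 0.31, and TYMS to DTYMK from -0.11 to 0.0081 (log2). Rescaling moves all genes of a sample together by construction, and the cause of the other turns was not tested. The enzymes' single differences kept their sign and their side of the threshold in 140 of 149 cases, a count in part fixed in advance. Changes of filter, variance model or block left each difference as it was, and no enzyme was called in any fit. TPM keeps no depth, so each difference was judged by the spread of at most 3 samples per group. In the limma fits that spread was drawn toward that of other genes.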
